A study of Mus musculus with 12 samples.

Results

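The Dlk1-Dio3 cluster is an imprinted domain on mouse chromosome 12, and its 6 named genes (Meg3, Rian, Mirg, Dlk1, Rtl1 and Dio3) were followed here among the 35976 genes of the deposited table. They were listed by name because Meg3 and Rian had already been seen to be much higher in PROSER1 KO cells than in wildtype (WT) cells in these same libraries, so the cluster was chosen by the KO against WT difference of these 2 RNAs, and its KO against WT values are given as a description, with no test. All 6 genes were in the table, and 5 passed the filter for testing (a mean of at least 10 normalised counts over the libraries). Rtl1 did not pass.

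Mouse embryonic stem cells (mESC) that were WT, PROSER1 KO or PROSER1 KO+Rescue gave 2 RNA libraries per genotype at each of 2 stages, 6 groups in all. The mESC were kept on gelatin in serum medium with LIF, the GSK3 inhibitor CHIR99021 and the MEK inhibitor PD0325901, and the day 2 cells had spent 48 hours as a monolayer in N2B27 medium, for which no inhibitor or LIF is listed. All lines go back to feeder-free mESC carrying floxed Tet2 alleles (TET2 fl/fl), the controls included. The KO line was grown from a single sorted cell after CRISPR-Cas9 editing in exon 1 of Proser1, and the KO+Rescue line is that KO line carrying a PiggyBac Proser1-FLAG transgene, selected with blasticidin and subcloned, so each genotype is 1 line and differences between genotypes are also differences between lines. The table names the KO and KO+Rescue columns only by a line code, and reading that code as KO, or with an added R as KO+Rescue, is an inference. The libraries are called A and B after the columns, and p-values measure the spread between these libraries only.

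Imprinted genes are expressed from the copy of 1 parent. In this cluster the paternal copy gives the protein-coding genes Dlk1, Rtl1 and Dio3, and the maternal copy gives the non-coding RNAs Meg3, Rian and Mirg together with many microRNAs and small nucleolar RNAs (snoRNAs) that lie within or between them. A control region between Dlk1 and Meg3 is methylated on the paternal copy, and the zinc finger protein ZFP57 is known to keep imprinted control regions methylated. The maternal RNAs are known to vary between pluripotent stem cell lines, in some of which they are silent.

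The windows around the annotated starts of the 3 maternal RNAs are shown because these RNAs carry the differences described here. Each is 300 bases long, from 250 before to 50 after the RefSeq start (build GRCm38.p6), with capitals marking CpG dinucleotides and the ZFP57 hexamer TGCCGC on either strand, where the hexamer itself contains a CpG.
Meg3, chr12:109540746-109541045, strand +: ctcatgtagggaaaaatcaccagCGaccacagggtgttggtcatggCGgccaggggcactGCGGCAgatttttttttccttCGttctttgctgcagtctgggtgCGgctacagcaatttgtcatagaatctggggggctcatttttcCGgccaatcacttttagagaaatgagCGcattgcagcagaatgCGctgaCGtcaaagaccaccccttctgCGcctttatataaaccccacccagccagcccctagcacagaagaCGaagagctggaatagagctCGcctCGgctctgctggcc
Rian, chr12:109603695-109603994, strand +: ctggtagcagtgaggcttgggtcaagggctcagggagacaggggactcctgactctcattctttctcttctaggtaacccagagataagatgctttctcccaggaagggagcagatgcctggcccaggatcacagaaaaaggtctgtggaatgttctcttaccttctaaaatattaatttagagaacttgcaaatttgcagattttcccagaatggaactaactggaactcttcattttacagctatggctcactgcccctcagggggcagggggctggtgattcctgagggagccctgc
Mirg, chr12:109734731-109735030, strand +: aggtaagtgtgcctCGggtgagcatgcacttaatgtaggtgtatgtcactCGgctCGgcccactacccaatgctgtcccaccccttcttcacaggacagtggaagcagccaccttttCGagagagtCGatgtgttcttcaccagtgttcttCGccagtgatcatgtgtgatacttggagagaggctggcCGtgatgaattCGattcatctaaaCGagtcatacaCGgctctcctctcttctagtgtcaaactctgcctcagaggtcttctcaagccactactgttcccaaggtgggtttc
The Meg3 window held 13 CpG dinucleotides and 1 hexamer, which begins at base 61 of the window and lies on the opposite strand. The Rian window held 0 CpG and the Mirg window 10, and neither held the hexamer. Of 32851 RefSeq windows of this length, 11.6% held the hexamer and 5.43% held no CpG, and the median window held 7. Meg3 has a second annotated start, whose window held 1 CpG, and 5 of the 6 genes matched a window.

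Before the cluster is compared between genotypes, 2 features of the lines have to be given. Proser1, the targeted gene, had normalised counts of 550 to 889 in the 4 WT libraries, 502 to 1067 in the 4 KO libraries and 2828 to 3090 in the 4 KO+Rescue libraries. The KO and WT ranges overlapped, and since a small edit in exon 1 need not lower a gene-level count, this count does not check the edit. Every KO+Rescue library held more Proser1 RNA than any WT or KO library. The 6 tested Y-linked genes (Zfy1, Uba1y, Kdm5d, Eif2s3y, Uty and Ddx3y) summed to 12.7 to 31.5 normalised counts in the WT libraries, 9744 to 14881 in the KO libraries and 10505 to 14145 in the KO+Rescue libraries. Uty alone had 2.37 and 2.04 normalised counts in WT mESC and 1789 and 1863 in KO mESC. The 542 tested X-linked genes had a median log2 difference of 0.07 between KO and WT mESC, and Xist, the RNA that coats an inactive X chromosome, was between 0 and 6.73 normalised counts in all 12 libraries. The WT line and the KO-derived lines thus differed in Y-linked RNA at both stages, although the study's methods state that reads on chromosome Y were removed. A difference between WT and KO or KO+Rescue cells cannot be told apart here from a difference between the lines. KO and KO+Rescue cells both carried the Y-linked RNAs, with median log2 differences over the 6 genes of -0.37 in mESC and 0.10 at day 2.

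**Figure D1:**
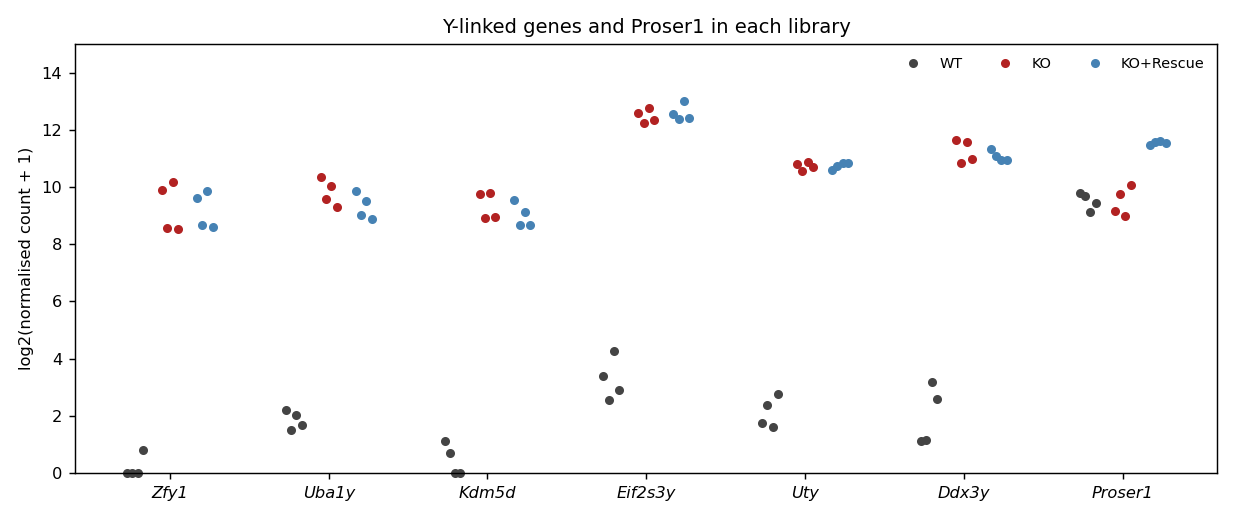
Normalised counts of the 6 tested Y-linked genes and of Proser1, as log2(normalised count + 1) on the vertical axis, with 1 point for each of the 4 libraries of WT, KO and KO+Rescue cells. Every WT library lies far below every KO and KO+Rescue library for the Y-linked genes, and the KO+Rescue libraries lie above the others for Proser1.

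The libraries held 38634668 to 66450803 reads. Pluripotency markers (Pou5f1, Sox2, Nanog and 5 others) summed to 230228 to 335807 normalised counts in mESC and 66212 to 122364 at day 2, so the cells carried the labelled identity. The day 2 sums were highest in KO (122364 and 114353), against 66212 to 103075 in the other libraries. Pou5f1 made up most of each sum (84294 and 76372 in KO), and it and Nanog were highest in KO. Sox2 went the other way and was lowest in KO at day 2 (3611 and 3818), against 4543 to 5376 in the other libraries. The 5 others are not given singly. Sums of 5 formative and primed markers at day 2 were 92894 and 95307 for KO, against 56805 to 81247 in the others. Those of 4 neuroectoderm markers were 4392 and 4296 for KO, against 2112 to 3959. Both of these sums ran from WT through KO+Rescue to KO, as did Fgf5 and Dnmt3b of the formative list, but other markers did not. Sox1 of the neuroectoderm list was highest in KO+Rescue at day 2 (181 and 178), against 140 and 154 in KO and 44.2 and 37.0 in WT. For Pou3f1 of the formative list, WT (10465 and 6241) and KO (9462 and 9317) overlapped at day 2. The 10 fibroblast markers looked at summed to 447 and 376 normalised counts in WT mESC, 195 and 162 in KO mESC and 175 and 125 in KO+Rescue mESC, highest in WT. At day 2 they were highest in KO, with sums of 1641 and 1479, against 1286 and 1153 in WT and 770 and 791 for the rescued line. The collagen-binding Dcn alone had means of 380, 256 and 184 in this order. Not every marker of the list did so. Col1a1 was highest in WT at day 2 (118 and 70.3), against 43.6 and 33.7 in KO and 15.3 and 20.7 for the rescued line. For Col1a2, WT (93.8 and 50.7) and KO (76.1 and 81.6) overlapped at day 2. Postn and Twist2 were at 0 in every mESC library and Fap at 0 in every day 2 library. At day 2 the sums of 5 trophoblast markers (614 and 563 in KO, 263 to 380 in the other libraries) and of 4 mesendoderm markers (428 and 411 in KO, 93.9 to 185 in the others) were highest in KO as well. Both lists hold Eomes, so these sums are not separate observations, and their markers are not given singly. The part of these markers in the day 2 differences of the cluster was not tested. In bulk RNA, fewer cells with an RNA and less of it per cell cannot be told apart.

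Each of the maternal non-coding RNAs was far lower in WT cells than in KO cells. Rian, a long RNA that hosts the snoRNAs of the cluster, had normalised counts of 65.2 and 40.7 in WT mESC and 3159 and 3094 in KO mESC. At day 2 it had 70.2 and 107 in WT and 8732 and 9014 in KO. Neither stage showed any overlap, and Rian stood 5.90 ± 0.21 (SE, n = 2 per group) higher in KO on the fitted log2 scale in mESC and 6.66 ± 0.21 higher at day 2, on the log2(normalised count + 1) scale used throughout. Rian lies at chr12:109603945-109661716 (GRCm38.p6), a build whose coordinates are those of mm10, to which the reads were aligned.

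Meg3, the first gene of the maternal series and a long non-coding RNA often lost in tumours, followed the same order. It had 3.56 and 9.16 normalised counts in WT mESC and 214 and 204 in KO mESC, and the WT values stand for only 3 and 9 reads. At day 2 the values were 15.7 and 21.7 in WT and 1361 and 1513 in KO. The groups did not overlap, with log2 differences of 4.95 ± 0.37 in mESC and 6.20 ± 0.37 at day 2. Meg3 lies at chr12:109540996-109571729, about 62.9 kb before the start of Rian.

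Mirg, the host RNA of the distal microRNA group, was the lowest of the 3 in reads. It had 0 and 1.02 normalised counts in WT mESC (0 and 1 reads) and 78.4 and 74.2 in KO mESC. From the summed reads, the KO level was 140 times the WT level, with an exact 95% interval of 24.6 to 5562 that covers counting error only. At day 2 Mirg had 0.605 and 6.52 in WT and 208 and 174 in KO, a ratio of 57.8 (exact 95% interval 31.2 to 121). The fitted log2 differences were 5.77 ± 0.60 and 5.78 ± 0.60, and the value in mESC was 6.46 with a pseudocount of 0.5, since the WT level is so near 0. Mirg lies at chr12:109734981-109749458.

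Over all 15341 tested genes, limma called 9.48% different between KO and WT in mESC and 5.21% at day 2 (adjusted p under 0.05). These shares are given only as background, because this contrast chose the genes. Leaving out 1 library at a time, the log2 differences ranged from 5.56 to 6.23 in mESC and 6.36 to 6.96 at day 2 for Rian, and from 4.37 to 5.53 and 5.98 to 6.42 for Meg3. For Mirg they ranged from 5.26 to 6.27 in mESC and from 4.67 (without WT day 2 A) to 6.89 (without WT day 2 B) at day 2, where the WT library left decides the size.

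**Figure D2:**
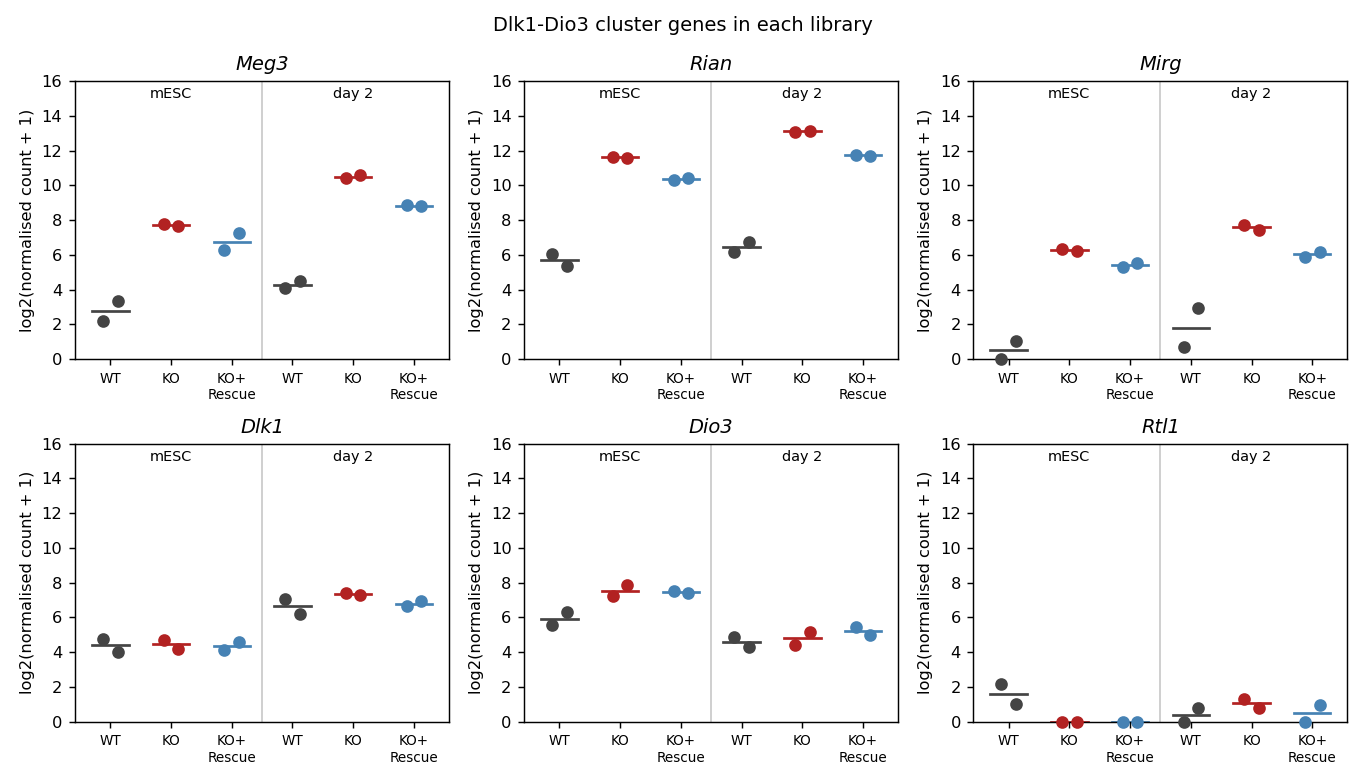
Each of the 6 cluster genes as log2(normalised count + 1) on the vertical axis, with 1 point per library, a line at the mean of the 2 libraries, mESC on the left and day 2 on the right of each panel. Meg3, Rian and Mirg run from WT at the bottom through KO+Rescue to KO at the top at both stages, in each genotype Dlk1 is higher and Dio3 lower at day 2, and Rtl1 is near 0.

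The KO+Rescue line, which carries the Proser1 transgene, was compared with the KO line from which it was made. These libraries measure RNA, not protein. An effect of re-expression cannot be told apart here from a difference between these lines. The KO+Rescue libraries were not used to choose the genes, while the KO libraries were, and the comparisons of KO+Rescue with KO and with WT share the KO+Rescue libraries. Rian had 1277 and 1352 normalised counts in KO+Rescue mESC and 3413 and 3322 at day 2, below both KO libraries at each stage. Its mean was 42.0% of the KO mean in mESC and 38.0% at day 2. Rian was 2.38-fold lower in KO+Rescue than in KO mESC (log2 -1.25 ± 0.21, limma adjusted p = 0.0127) and 2.63-fold lower at day 2 (log2 -1.40 ± 0.21, limma adjusted p = 0.00582). Both calls needed all the libraries, and the call in mESC was also lost with only the 4 libraries compared in the fit (adjusted p = 0.0742). Without any 1 of the 4 libraries compared, the log2 difference stayed between -1.29 and -1.21 in mESC and between -1.42 and -1.38 at day 2, while the limma adjusted p rose to 0.0679 to 0.104 and to 0.0634 to 0.0910.

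Meg3 had 76.3 and 151 normalised counts in KO+Rescue mESC. Both lay below the KO values, but the log2 difference of -0.95 ± 0.37 did not pass the test (limma adjusted p = 0.271, or 0.0410 by DESeq2 on the recovered reads), with a mean of 54.5% of the KO mean. At day 2 Meg3 had 472 and 439, which was 31.7% of the KO mean and 3.15-fold lower (log2 -1.66 ± 0.37, limma adjusted p = 0.0412). That call was close to the threshold. It had an adjusted p of 0.0508 with a pseudocount of 0.5, of 0.0896 without the filter on low genes, and of 0.228 to 0.293 without any 1 of the 4 libraries compared, with log2 differences from -1.73 to -1.58.

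Mirg had 37.6 and 44.5 normalised counts in KO+Rescue mESC and 58.7 and 70.5 at day 2, again below both KO libraries at each stage. The log2 differences from KO were -0.88 ± 0.60 in mESC (limma adjusted p = 0.569) and -1.55 ± 0.60 at day 2 (limma adjusted p = 0.210). At day 2 the count models on the recovered reads did call it, with adjusted p = 0.0388 in edgeR and 0.000382 in DESeq2. Of the 5 tested members, then, 1 passed the limma test in mESC, where 1.51% of all tested genes were called, and 2 passed at day 2, where 1.83% were called. All were lower in KO+Rescue. The genes called were Rian in mESC and Meg3 and Rian at day 2, the RNAs by which the cluster was chosen. They were chosen for high values in these same KO libraries, which favours a lower value in KO+Rescue. The p-values and calls for them in this contrast are thus no independent support either. The median log2 difference of the 5 members was -0.88 in mESC and -1.40 at day 2, beside medians of 0.03 and -0.02 over all tested genes.

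Whether the KO+Rescue against KO difference itself changed with stage was asked of each member by an interaction. None of the 5 was called by limma, edgeR or DESeq2, and 0 had an unadjusted limma p under 0.05, while 0.0847% of all tested genes were called by limma. The interaction was -0.70 ± 0.52 for Meg3 (limma adjusted p = 0.738) and -0.15 ± 0.30 for Rian (limma adjusted p = 0.932).

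The KO+Rescue cells were set beside WT to see how far the RNAs were from their level there, again with WT libraries that were used in choosing the genes. The KO+Rescue line also derives from the KO line. A high level of the maternal RNAs over WT was thus partly set by that choice. The p-values and calls for them in this contrast are no independent support. Rian was higher in KO+Rescue than in WT by a log2 difference of 4.65 ± 0.21 in mESC (limma adjusted p = 2.91e-08) and 5.26 ± 0.21 at day 2 (limma adjusted p = 8.44e-09). Meg3 was higher by 4.0 ± 0.37 (limma adjusted p = 7.18e-05) and 4.55 ± 0.37 (limma adjusted p = 9.03e-06). Mirg was higher by 4.88 ± 0.60 (limma adjusted p = 0.000555) and 4.23 ± 0.60 (limma adjusted p = 0.000915). Since WT mESC held 1 Mirg read, the ratio of summed reads is the safer size there, 73.4 with an exact 95% interval of 12.7 to 2946 for counting error only. At day 2 the Mirg difference was 3.12 without WT day 2 A and 5.35 without WT day 2 B. With Dio3 in mESC, 4 of the 5 members were called in mESC, where 18.2% of all tested genes were called, and 3 at day 2, where 11.1% were. On the log2 scale the KO+Rescue cells kept 78.8% of the KO to WT gap of Rian in mESC and 79.0% at day 2, and for Meg3 they kept 80.8% and 73.3%. The Y-linked genes moved in this contrast too, by median log2 differences of 8.97 in mESC and 8.29 at day 2.

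**Figure D3:**
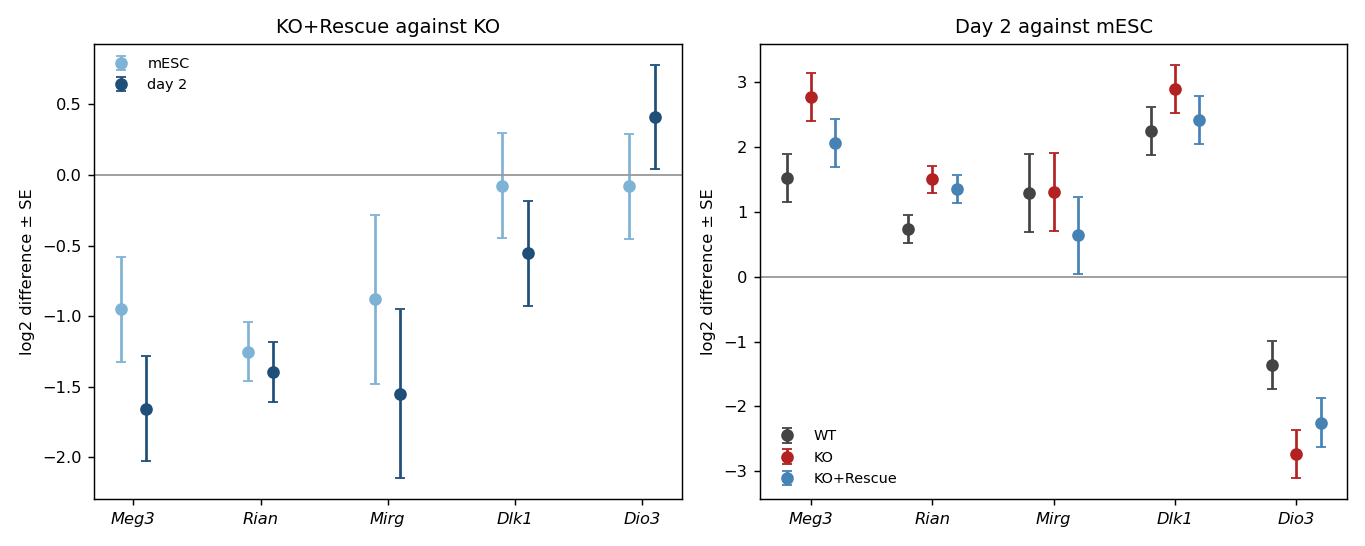
Fitted log2 differences ± SE (vertical axis) of the 5 tested cluster genes, on the left for KO+Rescue against KO in mESC and at day 2 and on the right for day 2 against mESC in each genotype. Rian, Meg3 and Mirg have negative values on the left, and Dio3 is the only gene with negative values on the right.

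Among the paternally expressed genes, the group means of Dlk1 at day 2 and of Dio3 in mESC also ran from WT through KO+Rescue to KO, but in each case KO+Rescue overlapped 1 of the other groups. Dlk1, a transmembrane Notch-related protein known as preadipocyte factor, had 26.1 and 15.3 normalised counts in WT mESC, 24.7 and 17.5 in KO mESC and 16.7 and 23.2 in KO+Rescue mESC. The 3 ranges overlapped. At day 2 WT had 134 and 72.5, KO+Rescue 99.7 and 121, and KO 168 and 156, where KO lay above both other groups. The KO to WT log2 difference was 0.06 ± 0.37 in mESC and 0.71 ± 0.37 at day 2. KO+Rescue differed from KO by -0.08 ± 0.37 in mESC (limma adjusted p = 0.949) and by -0.55 ± 0.37 at day 2 (limma adjusted p = 0.483), and from WT by -0.02 ± 0.37 and 0.16 ± 0.37 (limma adjusted p = 0.978 and 0.819). Under scaling to equal library totals the last of these turned to -0.0384.

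Dio3, the deiodinase that inactivates thyroid hormone, had 46.2 and 78.4 normalised counts in WT mESC, 149 and 232 in KO mESC and 183 and 169 in KO+Rescue mESC. WT was below both other groups, which overlapped each other. The KO to WT log2 difference was 1.61 ± 0.37 in mESC and 0.23 ± 0.37 at day 2. KO+Rescue was 2.89-fold higher than WT in mESC (log2 1.53 ± 0.37, limma adjusted p = 0.0194), and this call was lost without WT mESC A (log2 1.16, adjusted p = 0.168), without KO+Rescue mESC A (1.48, adjusted p = 0.0507) and without KO+Rescue mESC B (1.59, adjusted p = 0.124). At day 2 Dio3 was at 27.8 and 18.8 in WT, with KO at 20.7 and 35.2 and KO+Rescue at 42.2 and 31.0, and KO+Rescue differed from WT by 0.64 ± 0.37 (limma adjusted p = 0.279). Against KO the differences were -0.08 ± 0.37 in mESC (limma adjusted p = 0.946) and 0.41 ± 0.37 at day 2 (limma adjusted p = 0.620).

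Rtl1, a retrotransposon-derived gene needed in the placenta, was barely detected. It had 3.56 and 1.02 normalised counts in WT mESC, 0 and 0 in KO mESC, 0 and 0 in KO+Rescue mESC, 0 and 0.725 in WT at day 2, 1.48 and 0.748 in KO at day 2 and 0 and 0.939 in KO+Rescue at day 2. These values stand for 9 reads over 12 libraries, at or below 3 in each, and no difference was detectable at this depth. Its annotation overlaps that of Meg3 and of Rian on the opposite strand. The library kit keeps strand, but whether the counting used it is not given in the sources used here, so the reads of Rtl1 and of the RNAs opposite to it cannot be told apart.

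From mESC to day 2, after 48 hours in N2B27, 4 of the 5 tested genes changed in each genotype. Dlk1 rose from mESC to day 2 by a log2 difference of 2.25 ± 0.37 in WT (limma adjusted p = 0.000251), 2.90 ± 0.37 in KO (limma adjusted p = 2.34e-05) and 2.42 ± 0.37 in KO+Rescue (limma adjusted p = 0.000113). Meg3 rose by 1.52 ± 0.37 in WT (limma adjusted p = 0.00401), 2.78 ± 0.37 in KO (limma adjusted p = 3.28e-05) and 2.07 ± 0.37 in KO+Rescue (limma adjusted p = 0.000383). Rian rose by 0.74 ± 0.21 in WT (limma adjusted p = 0.0104), 1.5 ± 0.21 in KO (limma adjusted p = 5.19e-05) and 1.36 ± 0.21 in KO+Rescue (limma adjusted p = 0.000127). The rise of Rian in WT was lost without WT mESC B (0.41, adjusted p = 0.120) or without WT day 2 B (0.44, adjusted p = 0.0963), and with only the 4 WT libraries in the fit the rises of Meg3 (adjusted p = 0.0785) and Rian (adjusted p = 0.167) in WT did not pass.

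Dio3 fell from mESC to day 2, against the direction of the other 4 tested genes. It fell by 1.36 ± 0.37 on the log2 scale in WT (limma adjusted p = 0.00807), by 2.74 ± 0.37 in KO (limma adjusted p = 3.72e-05) and by 2.25 ± 0.37 in KO+Rescue (limma adjusted p = 0.000200). In WT the call was lost without WT mESC B (-0.98, adjusted p = 0.0828) or without WT day 2 B (-1.09, adjusted p = 0.0519). Mirg did not pass in any genotype, with log2 differences of 1.29 ± 0.60 in WT (limma adjusted p = 0.0876), 1.30 ± 0.60 in KO (limma adjusted p = 0.0765) and 0.64 ± 0.60 in KO+Rescue (limma adjusted p = 0.375). In KO both count models called it, with adjusted p = 0.00559 in edgeR and 0.000278 in DESeq2. In each genotype 3 of the 5 members thus rose and 1 fell. In these contrasts 51.9% of all tested genes were called for WT, 60.1% for KO and 58.2% for the KO+Rescue line. Calls were thus common there, and 5 genes are too few to tell their share from that of all genes. Whether the size of the stage change differed between genotypes was tested only for KO+Rescue against KO, by the interaction given above.

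The read ratio of Rian to Meg3, which compares the same gene pair between libraries, was lower at day 2 in KO and KO+Rescue cells. It was 14.8 and 15.2 in KO mESC and 6.41 and 5.96 at day 2. In KO+Rescue cells it was 16.7 and 8.93 in mESC and 7.24 and 7.57 at day 2. In these genotypes mESC and day 2 did not overlap, which is the larger rise of Meg3 seen as a ratio. In WT cells, with 3 and 9 Meg3 reads in mESC, the ratio was 18.3 and 4.44 in mESC and 4.46 and 4.93 at day 2, and the stages overlapped.

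Small RNA genes inside the cluster were sparsely counted, since the library was not made for short RNAs. The table held 61 microRNA genes between Dlk1 and Dio3, of which 18 had any read and 0 passed the filter, and 7 snoRNA genes, of which 1 passed. The 61 microRNA genes summed to 0 and 1 reads in WT mESC, 9 and 5 in KO mESC and 5 and 0 in KO+Rescue mESC. At day 2 KO had sums of 19 and 38 reads, KO+Rescue 2 and 17, and WT 0 and 0. WT was at or near 0. Some of these genes lie within Meg3, Rian or Mirg and may share their reads. As normalised counts, which allow for depth, KO mESC had 10.1 and 6.74 and KO+Rescue mESC had 5.23 and 0. These did not overlap, but they stand for few reads, and the share of all genes without overlap was not counted. At day 2 KO had 14.04 and 28.4 normalised counts and KO+Rescue had 2.35 and 15.97, so the groups overlapped.

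The snoRNA gene that passed, AF357359, lies within Rian and may share its reads. It had 0 and 1.02 normalised counts in WT mESC, 70.6 and 72.8 in KO mESC and 33.5 and 35.6 in KO+Rescue mESC. At day 2 KO had 180 and 216, KO+Rescue 85.7 and 64.8, and WT 0 and 3.62. The 3 genotypes did not overlap at either stage and stood in the order of Rian. The share of all genes without overlap was not counted, and the WT values stand for 0 and 1 reads in mESC and 0 and 5 at day 2. KO+Rescue differed from KO by -1.03 ± 0.61 in mESC (limma adjusted p = 0.506) and -1.39 ± 0.61 at day 2 (limma adjusted p = 0.265), so neither difference passed. The other 6 snoRNA genes summed to 0 reads in all 4 WT libraries, 13 to 22 in the KO libraries and 2 to 7 in the KO+Rescue libraries.

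The mature microRNAs themselves were not measured. Their sequences are shown, from RefSeq, to show which microRNAs are annotated on the strand of the maternal RNAs. Of 114 mature entries in the span 8 lie on the opposite strand, and of the 105 distinct microRNAs on the maternal RNA strand 16 share their seed (bases 2 to 8, in capitals) with another, in 8 seeds. The following 4 pairs share a seed, and 3 of these 8 microRNAs lie inside Mirg (miR-453, miR-496a-5p and miR-410-5p).
mmu-miR-453: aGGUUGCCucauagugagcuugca
mmu-miR-496a-5p: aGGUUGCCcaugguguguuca
mmu-miR-410-5p: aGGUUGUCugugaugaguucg
mmu-miR-494-5p: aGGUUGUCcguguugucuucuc
mmu-miR-379-5p: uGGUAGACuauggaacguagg
mmu-miR-1193-5p: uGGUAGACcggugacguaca
mmu-miR-376b-5p: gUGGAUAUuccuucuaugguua
mmu-miR-376c-5p: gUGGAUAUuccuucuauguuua

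Of the other genes annotated between Dlk1 and Dio3, 13 were in the table and none passed the filter. The following 3 had 0 reads in every WT library and some in KO. The share of all genes with this pattern was not counted, and at so few reads 0 in WT need not mean absence. Gm34081, a non-coding RNA that ends just before Meg3, had 13 and 10 reads in KO mESC, 5 and 3 in KO+Rescue mESC and 1 and 4 in KO at day 2. 6430411K18Rik, annotated within the Rtl1 span, had 11 and 11 reads in KO mESC, 33 and 31 in KO at day 2, 5 and 4 in KO+Rescue mESC and 3 and 11 in KO+Rescue at day 2. Gm34719 had 2 reads in all, with means of 0.374 normalised counts in KO at day 2 and 0.523 in KO+Rescue mESC. These 3 were chosen for mention after their values were seen. Dio3os, antisense to Dio3, had 15 reads in all, 8 of them in KO+Rescue day 2 A.

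Within 500 kb of the outer members 7 genes were tested (Wdr25, Begain, Gm6988, Ppp2r5c, Dync1h1, Hsp90aa1 and Wdr20). Their KO to WT log2 differences ran from -1.42 to 0.85 in mESC and from -0.69 to 0.95 at day 2, with medians of 0.03 and 0.04. In KO+Rescue against KO mESC limma called 0 of 7, with 0 at an unadjusted p under 0.05 and 0 in edgeR and DESeq2. Of all tested genes 1.51% were called there. At day 2 limma called 1 of 7, where 1.83% of all tested genes were called. That gene was Wdr20, which was higher in KO+Rescue (log2 0.63 ± 0.12, limma adjusted p = 0.0180). Against WT, KO+Rescue mESC had 3 of 7 called, Ppp2r5c and Gm6988 higher and Wdr25 lower, none beyond a log2 difference of 1.36, where 18.2% of all tested genes were called. At day 2 it had 1 of 7 called, Wdr20, which was higher (log2 0.47 ± 0.12, limma adjusted p = 0.0254), where 11.1% were, near the share over all genes.

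**Figure D4:**
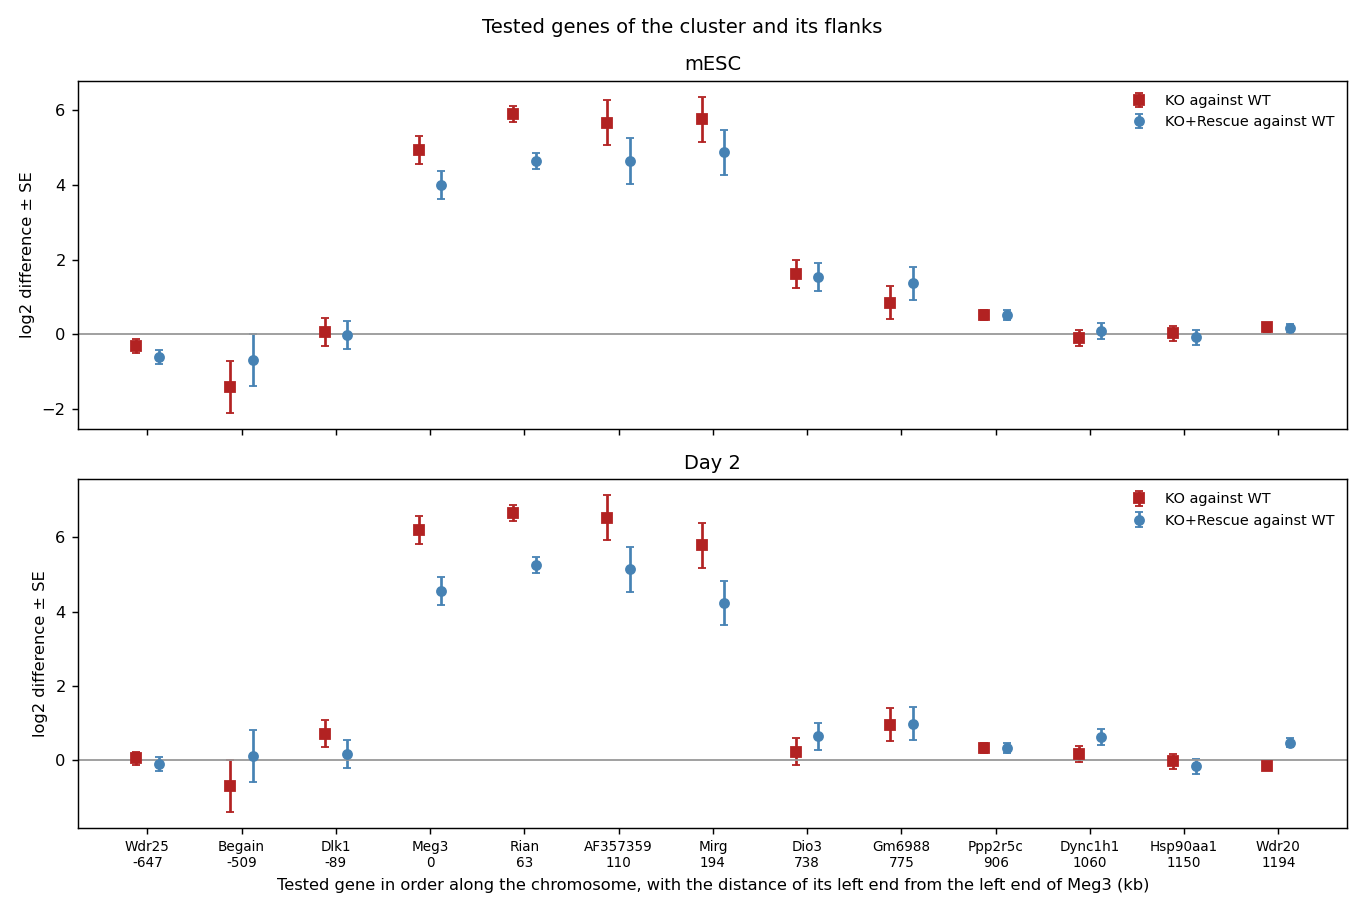
Fitted log2 differences ± SE (vertical axis) from WT of KO and of KO+Rescue cells, in mESC above and at day 2 below, for the 13 tested genes of the cluster and its flanks in chromosome order, with the distance of each from Meg3 in kb. Meg3, Rian, AF357359 and Mirg stand at about 4.0 or more, and the flanking genes lie between -1.42 and 1.36.

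RNAs of factors known to act on imprints were looked at beside the cluster. All 16 genes of the list (among them Zfp57, Zfp445 and Trim28 of the imprint-maintenance complex, the DNA methyltransferases and the TET genes) were tested. In KO+Rescue against KO limma called 0 of 16 at both stages, with 3 (Tet1, Dnmt3b and Dppa3) and 1 (Dnmt3l) at an unadjusted p under 0.05, while edgeR called 0 and 0 and DESeq2 1 and 0. Over all tested genes limma called 1.51% in this contrast in mESC and 1.83% at day 2. Zfp57 had 11203 and 11256 normalised counts in WT mESC, 9995 and 10602 in KO mESC and 10572 and 11269 in KO+Rescue mESC, and it was lower at day 2 in each genotype, with log2 differences from -3.27 to -3.13. Against WT, KO+Rescue mESC had lower Dnmt3a (log2 -0.83), Dnmt3l (-0.74) and Jarid2 (-0.73), 3 of 16 genes, which is near the 18.2% of all tested genes called there. At day 2 the line had lower Dppa3 (-1.97), a maternal factor that shields methylation in the zygote, lower Dnmt3l (-0.78) and higher Tet2 (0.82) than WT, 3 of 16 where 11.1% of all tested genes were called. For KO against WT the genes named are those that limma called. Dnmt3a (-0.66), Dnmt3l (-0.51) and Jarid2 (-0.77) were lower in KO mESC, 3 of 16 where 9.48% of all tested genes were called. At day 2 Dppa3 (-2.15) and Dnmt3l (-1.09) were lower and Tet1 (0.82) and Tet2 (0.82) higher, 4 of 16 where 5.21% were called. Between stages, 4 of 16 rose and 8 fell in WT, 4 rose and 5 fell in KO, and 5 rose and 7 fell in the KO+Rescue line. Of all tested genes 51.9%, 60.1% and 58.2% were called in these 3 genotypes.

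Of 8 genes in the pathways of DLK1 and DIO3 (Notch signalling and thyroid hormone action) 5 were tested. In KO+Rescue against KO limma called 0 of 5 at both stages, with 2 at an unadjusted p under 0.05 at each, while edgeR called 0 and 1 and DESeq2 0 and 2. The limma shares over all tested genes were 1.51% in mESC and 1.83% at day 2. At day 2, Hes1 (log2 -0.66), a Notch target, and Thra (-0.94), a thyroid hormone receptor, were lower in KO+Rescue than in WT, 2 of 5 where 11.1% of all tested genes were called. In KO against WT at day 2 limma called Notch1 (-0.76) and Hes1 (-0.58) lower, 2 of 5 where 5.21% of all tested genes were called. From mESC to day 2 Notch1 rose in each genotype, Thra rose in WT and KO, Hes1 fell in KO and KO+Rescue, and Klf9 fell in WT and KO.

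The genes most like Meg3 and Rian over the 12 libraries were found by Pearson's correlation with the mean of their centred log2 profiles. Mirg, from the same cluster, had r = 0.978, Dlk1 0.396 and Dio3 0.0592. Outside the cluster the 8 closest were Wls, Rsrc1, Gm39552, Hdac2, Paip1, Ensa, Uty and N6amt1, with r from 0.961 down to 0.925. Wls, which carries Wnt proteins to the cell surface, had group means of 325, 1061 and 606 normalised counts in WT, KO and KO+Rescue mESC, the same order at a smaller span. Uty is among the Y-linked genes described above. The 12 points share 6 groups and 3 lines, so a gene that merely differs between the lines scores high, and the values are a description.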

How the data were processed

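Total RNA of 12 libraries in 6 groups was prepared with a directional kit. The authors trimmed reads with Trimmomatic, aligned them to mm10 with STAR and counted pairs with featureCounts on the RefSeq annotation (tools as in the submitters' processing notes and the methods; versions not given in the sources used here), and state that chromosome Y reads were removed. The deposited values are counts normalised by DESeq2 size factors, a signal rather than reads. Within a library 100% of values were whole multiples of 1 read (tolerance 0.001), so whole reads were recovered, 38634668 to 66450803 per library. Intervals cover counting error only. All 12 columns were mapped to a group and 0 were left unused.

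Genes with a mean of at least 10 (15341 of 35976) were tested on log2(normalised count + 1) with limma 3.58.1 (R 4.3.3), 6 group means, an intensity trend, 6 residual and 6.92 prior degrees of freedom, two-sided, with Benjamini-Hochberg adjustment over all tested genes. A call is an adjusted p under 0.05. edgeR 4.0.16 and DESeq2 1.42.0 were run on the recovered reads as alternatives and called 159 and 386 genes for KO+Rescue against KO in mESC and 355 and 742 at day 2, where limma called 232 and 281. Alternatives were another pseudocount (0.5), filter (1 or none), scaling to equal totals, only the groups compared, a replicate block and leaving out each library.

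The 6 members are always named, with all annotated genes within 500 kb by count, up to 4 listed regulators per contrast by adjusted p, pathway genes where called, and the 8 genes closest in profile. Members and lists were chosen with earlier results of these data known. Gene positions, promoters and microRNAs come from RefSeq tables of GRCm38.p6.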

Additional observations from a re-analysis of the deposited data

How the results depend on the processing

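The log2 differences of the maternal RNAs between KO+Rescue and KO kept their negative sign under every alternative run, while several calls crossed the threshold. With 2 libraries per group and 1 line per genotype the calls near the threshold are fragile, and leaving out a library leaves that group with 1, which is then assumed to vary like the others. Scaling to equal library totals moved the median of all genes by up to 0.365 on the log2 scale (day 2 against mESC in KO+Rescue), and by -0.323 and -0.196 for KO+Rescue against WT in mESC and at day 2.

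For the members, DESeq2 gave -0.91 for Meg3 in KO+Rescue against KO mESC (now called), -1.56 for Mirg at day 2 (called), 1.32 for Mirg from mESC to day 2 in KO (called) and 7.12 for Mirg in KO against WT mESC. edgeR gave -1.53, 1.32 and 6.82 for these 3 Mirg results, the first 2 called. With only the groups compared, Rian in KO+Rescue against KO mESC was -1.25 and Meg3 and Rian from mESC to day 2 in WT were 1.52 and 0.74, none called, while Mirg was called at -1.55 in KO+Rescue against KO at day 2 and at 1.30 from mESC to day 2 in KO. A pseudocount of 0.5 and no filter each took Meg3 in KO+Rescue against KO at day 2 (-1.66) past the threshold, and the pseudocount gave 6.46 for Mirg in KO against WT mESC. Equal totals turned Dlk1 in KO+Rescue against WT at day 2 to -0.0384 and called Mirg from mESC to day 2 in KO at 1.64. The cause of these changes was not tested.

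The library letters did not establish pairs, since differences of A from B correlated at -0.0481 to 0.413 between groups and were over 0.1 in 6 of 15 group pairs. The replicate block called Mirg from mESC to day 2 in WT (1.29) and in KO (1.30) and changed no other call of a member. In the order KO+Rescue against KO in mESC and at day 2, KO+Rescue against WT in mESC and at day 2, KO against WT in mESC and at day 2, and the interaction, the replicate block called 584, 1183, 4647, 3568, 3657, 1619 and 65 genes, and the fits of only the groups compared called 1, 2348, 347, 694, 181, 426 and 61. DESeq2 called 386 and 742 genes in KO+Rescue against KO, 1428 in KO against WT at day 2 and 90 in the interaction. Without the filter, 161 genes were called in KO+Rescue against KO at day 2, 1534 in KO+Rescue against WT mESC, 950 in KO against WT mESC and 4 in the interaction. Equal totals gave 176, 4563 and 7 for the first, second and last of these.

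Leaving out 1 library at a time, genes called ranged from 22 to 170 and 32 to 61 in KO+Rescue against KO (mESC and day 2), 285 to 4277 and 464 to 2669 in KO+Rescue against WT, 392 to 3225 and 246 to 711 in KO against WT, and 1 to 2 in the interaction. In KO+Rescue against KO mESC, Rian ranged from -1.29 to -1.21, Dlk1 from -0.31 to 0.16 (positive without KO A, 0.16, and without KO+Rescue A, 0.15) and Dio3 from -0.40 to 0.24 (positive without KO B). At day 2, Meg3 ranged from -1.73 to -1.58 and Rian from -1.42 to -1.38. Against WT, Dlk1 in KO+Rescue ranged from -0.39 to 0.35 in mESC (positive without WT A, 0.35, and without KO+Rescue A, 0.20) and from -0.28 to 0.59 at day 2 (negative without WT B), and Dio3 in mESC from 1.16 to 1.91. From mESC to day 2 in WT, Rian ranged from 0.41 to 1.07, Mirg from 0.18 to 2.41 and Dio3 from -1.73 to -0.98.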
